A study of Danio rerio with 2 samples.

Results

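The genes described here encode subunits of phosphoinositide 3-kinase (PI3-kinase), whose transcripts were measured in whole zebrafish larvae with real-time PCR. They were chosen by name, as the assays of a PI3K-Akt pathway array whose symbol starts with pik3. Of the 84 pathway genes on the array, 5 met this rule, and 4 of them are described here: pik3r2, pik3cb, pik3c2a and pik3cg. Wild-type (WT) larvae, of AB/TU background in the study's methods, were compared with NOD1-deficient larvae at 10 dpf (days post fertilization). The protein NOD1 is an intracellular receptor for bacterial cell wall fragments, and the mutants, named NOD1-1IS-/-, come from 1 line that carries a Cas9-induced insertion of a single base in nod1. No treatment or infection was part of either group. There were 3 biological replicates per group, pools of 200 to 250 larvae each, and every pool had an array of 96 wells to itself.

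PI3-kinases phosphorylate the inositol ring of membrane lipids, and the lipid products recruit Akt and other kinases to the membrane. A class I enzyme is a pair of a catalytic and a regulatory subunit. The regulatory subunit encoded by pik3r2 stabilizes the catalytic subunit, holds it inactive, and brings it to phosphorylated receptors and adaptors. The gene pik3cb encodes the beta catalytic subunit, which forms such pairs and also responds to G protein-coupled receptors. The gene pik3cg encodes the gamma catalytic subunit, which in mammals is most abundant in leukocytes, acts below G protein-coupled receptors and uses regulatory partners of another family. The gene pik3c2a encodes a class II enzyme, which needs no regulatory subunit of that kind and in mammals acts in endocytosis and vesicle transport.

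Each well gave a threshold cycle (Ct), the number of PCR cycles that the product needs to reach a set level, and every cycle less means roughly 2 times as much template. The mean Ct of the 4 genes ran from 22.8 (pik3r2) to 26.8 (pik3cg) in WT, well under the ceiling of 35. The genomic DNA control and the reverse transcription controls, 4 wells in all, stayed without a Ct on all 6 arrays. For the genomic DNA control this is the wanted result. Reverse transcription controls without a Ct give no check of how well that step worked. Levels were read as delta Ct, for which the mean Ct of the reference genes hprt1, nono and rpl13a of an array was subtracted from the Ct of each gene on it. For a log2 change, the mean delta Ct of NOD1-deficient larvae was subtracted from that of WT, so that a negative value stands for a lower level in NOD1-deficient larvae. The targeted gene nod1 has no assay on this array, and the genotypes could not be checked with it.

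The first question was how abundant the subunit transcripts were in WT larvae. The order was the same on 3 of 3 WT arrays, with pik3r2 highest, then pik3cb, pik3c2a and pik3cg. Delta Ct was 3.03 ± 0.194 for pik3r2, 3.44 ± 0.0748 for pik3cb, 4.03 ± 0.320 for pik3c2a and 7.01 ± 0.218 for pik3cg (SD, n = 3 each). Among the 84 pathway genes, where rank 1 is the most abundant, these levels ranked 42, 56, 63 and 75. Thus 3 of the subunits lay close together in the middle and lower part of the range, and pik3cg stood apart from them.

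The gap from pik3r2 to pik3cb in WT was 0.41 ± 0.134 cycles (SD, n = 3), or 1.33-fold, and that from pik3cb to pik3c2a was 0.59 ± 0.370 cycles, or 1.51-fold. Neither pair of neighbours overlapped in delta Ct, but the smallest gap on a single array was only 0.259 cycles in the first and 0.311 cycles in the second. The gap from pik3c2a to pik3cg was 2.97 ± 0.183 cycles (SD, n = 3), or 7.86-fold. From the highest to the lowest, the 4 genes spanned 15.7-fold in WT. Primer efficiencies and product lengths of the assays were not given in the sources used here, and with SYBR Green both enter a comparison between genes. The small gaps are therefore an order of assays more than of transcript numbers. The comparisons of 1 gene between genotypes below do not rest on that order. Their fold changes and percentages still assume a doubling per cycle, which the unknown efficiencies leave unchecked.

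**Figure D1:**
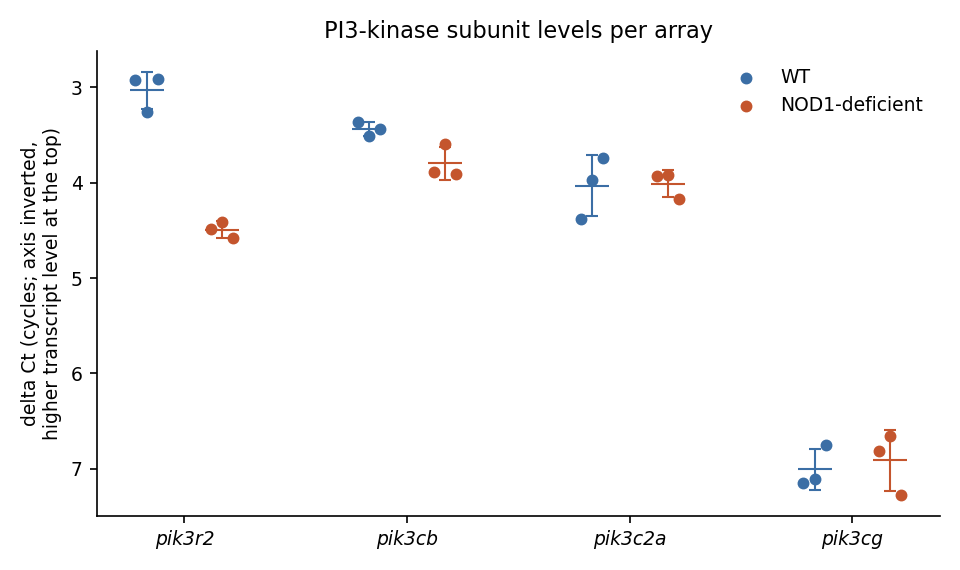
Delta Ct (cycles, axis inverted so that higher transcript levels are at the top) of the 4 PI3-kinase subunits. Points are arrays, 3 per genotype, and bars are means ± SD. The 3 NOD1-deficient values of pik3r2 lie from 4.41 to 4.58, a higher delta Ct and so a lower level than on any WT array. Those of pik3c2a and pik3cg overlap WT.

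The next question was which subunits differed between the genotypes. Of the 4 subunits described, 1 changed, and it was pik3r2. The level of pik3r2 in NOD1-deficient larvae fell to 36.3% of WT. The catalytic subunit pik3cb was at 77.9% of WT and did not pass the test, and pik3cg and pik3c2a, at 107% and 102% of WT, did not pass either. Across the array, 19.0% of the 84 pathway genes passed (16 genes, limma, Benjamini-Hochberg adjusted p under 0.05), and 15.5% passed as lower (13 genes), so that 1 of 4 is near the share of the array as a whole. That split of 3 higher and 13 lower turned with the scaling, to 16 higher and 6 lower with all 5 reference genes, 18 and 7 with centring on the median Ct, 37 and 4 with b2m alone, and 70 and 2 with acta1b alone. Over the 84 genes the log2 change had a median of -0.11.

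The gene pik3r2 had a delta Ct of 2.93, 3.25 and 2.91 on the WT arrays and of 4.48, 4.41 and 4.58 on the NOD1-deficient arrays. In terms of the reference mean, the WT pools held 13.1%, 10.5% and 13.3%, and the NOD1-deficient pools 4.48%, 4.71% and 4.17%. The groups were far from overlapping, and the lowest WT pool was still more than double the highest NOD1-deficient pool. The means were 3.03 ± 0.194 and 4.49 ± 0.0883 (SD, n = 3 each). The log2 change was -1.46 ± 0.158 (SE) or 2.75-fold, with a 95% interval of 29.3% to 45.1% of WT and an adjusted p of 8.63e-17 in limma. Only 2 of the 84 genes had a change of larger size. The exact permutation p was 0.1, the smallest that 3 replicates against 3 allow. In RNA of whole larvae, fewer cells that express the gene and less RNA per cell cannot be told apart. The study also reported that the mutants hatched later and that larval survival of the genotypes began to part at this age. Whether delayed development, failing larvae or parental background had a part in the values of pik3r2 was not tested.

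The p-value of limma rested on a variance shared by all genes, with an SD of 0.194. The own replicates of pik3r2 had a pooled SD of 0.151. With its own variance alone the SE was 0.123 and the adjusted p 0.0121. Before any scaling, the Ct of pik3r2 was 22.7, 22.9 and 22.8 in WT and 23.8, 24.0 and 24.1 in NOD1-deficient larvae. The 3 mutant values were therefore separated from WT without reference genes, with a log2 difference of -1.16 (exact permutation p = 0.1). This gene is among those that the study named from these same arrays, so its call is no independent evidence of a lower level.

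The gene pik3cb had a delta Ct of 3.36, 3.51 and 3.43 on the WT arrays and of 3.89, 3.59 and 3.91 on the NOD1-deficient arrays. The groups did not overlap, but NOD1-deficient replicate 2 lay close to WT replicate 2. Such separation was seen for 31.0% of the pathway genes. The log2 change was -0.36 ± 0.158 (SE), with a 95% interval of 62.8% to 96.7% of WT, an unadjusted p of 0.0234 and an adjusted p of 0.109 in limma. As raw Ct, pik3cb was 23.2, 23.1 and 23.3 in WT and 23.2, 23.2 and 23.4 in NOD1-deficient larvae, and the groups overlapped (log2 difference -0.064, exact permutation p = 0.6). The mean of the 3 reference genes was 0.30 log2 units higher in NOD1-deficient larvae (exact permutation p = 0.1). By construction, the log2 change of -0.36 is the raw difference of -0.064 minus this 0.30, so most of it came from the scaling. Whether the raw or the scaled value is nearer to the RNA level of pik3cb was not tested.

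The class II gene pik3c2a had a delta Ct of 4.38, 3.97 and 3.74 on the WT arrays and of 3.93, 3.92 and 4.17 on the NOD1-deficient arrays. The WT pools enclosed the 3 NOD1-deficient pools. The log2 change was 0.022 ± 0.158 (SE), with a 95% interval of 81.8% to 126% of WT and an adjusted p of 0.968 in limma. The SE based on this gene alone was 0.202, the spread being widest among WT pools.

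The gamma catalytic gene pik3cg had a delta Ct of 7.15, 7.11 and 6.76 on the WT arrays and of 6.81, 6.65 and 7.27 on the NOD1-deficient arrays. The groups overlapped, with NOD1-deficient replicate 3 the lowest in level of all 6 pools. The log2 change was 0.093 ± 0.158 (SE), with a 95% interval of 85.9% to 132% of WT and an adjusted p of 0.745 in limma. With its own variance the SE was 0.224. For pik3c2a and pik3cg, changes inside these intervals remained compatible with the data. The intervals use limma's SE of 0.158, which is smaller than the own SE of either gene. A p above the threshold does not show equal levels.

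**Figure D2:**
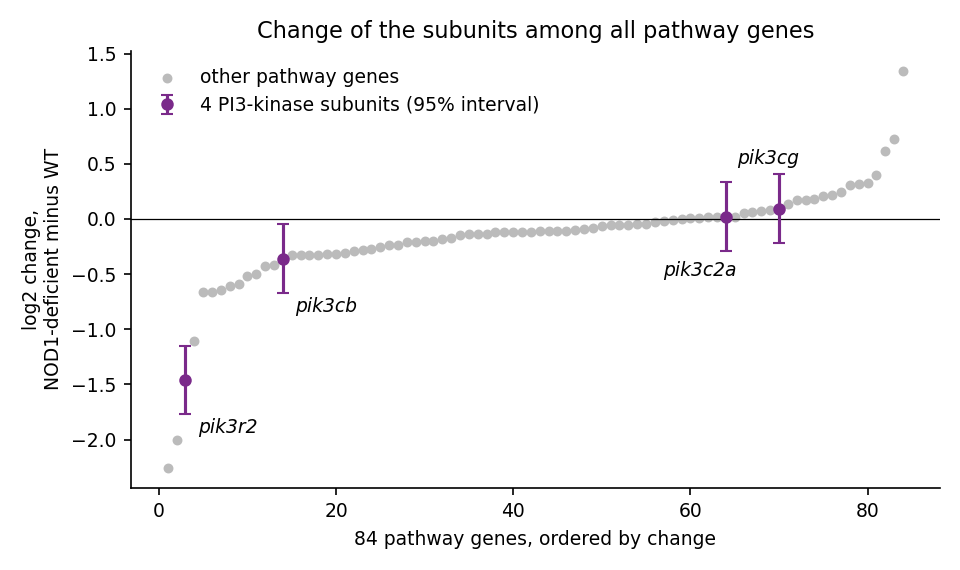
Log2 change (NOD1-deficient minus WT, in log2 units) of the 84 pathway genes in order of change, with the 4 PI3-kinase subunits in purple and their 95% intervals from limma. The interval of pik3r2 lies wholly below -1.1, that of pik3cb reaches nearly to 0, and those of pik3c2a and pik3cg enclose 0.

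The subunits were then set against each other on the same array, since the reference genes cancel in such a difference. In WT, the Ct of pik3r2 was lower than that of pik3cb on each array, by differences (pik3r2 minus pik3cb) of -0.437, -0.259 and -0.522 cycles. In NOD1-deficient larvae it was higher on each array, with differences of 0.589, 0.816 and 0.676 cycles. The sign was thus opposite on the 3 WT and the 3 NOD1-deficient arrays, which were not paired. The shift of 1.10 ± 0.102 cycles (SE, 95% interval 0.817 to 1.38) needed no reference gene. The exact permutation p was 0.1, the smallest possible, and 0.2 after Benjamini-Hochberg adjustment over the 6 pairs of subunits.

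Set against the other catalytic genes, pik3r2 shifted in the same direction. The Ct of pik3r2 minus that of pik3c2a was -1.45, -0.717 and -0.833 cycles in WT, and 0.547, 0.489 and 0.410 cycles in NOD1-deficient larvae. That shift was 1.48 ± 0.230 cycles (SE, 95% interval 0.842 to 2.12). The Ct of pik3r2 minus that of pik3cg was -4.22, -3.85 and -3.84 cycles in WT, and -2.33, -2.24 and -2.69 cycles in NOD1-deficient larvae, a shift of 1.55 ± 0.184 cycles (SE, 95% interval 1.04 to 2.06) without a turn of the sign. Neither comparison had overlapping groups, and each had an exact permutation p of 0.1 (0.2 adjusted over the 6 pairs). The transcript of pik3r2 was thus lower relative to each of the 3 catalytic genes described. The 3 shifts share the same pik3r2 values, so they are not independent of each other. At this number of arrays no exact permutation p could fall under 0.1.

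Among the catalytic genes the pairs overlapped between genotypes. The shift was 0.38 ± 0.230 cycles (SE, 95% interval -0.258 to 1.02) for pik3cb minus pik3c2a and -0.45 ± 0.187 cycles (SE, 95% interval -0.973 to 0.0673) for pik3cg minus pik3cb, with an exact permutation p of 0.2 for each. The smallest shift was that of pik3cg minus pik3c2a, -0.071 ± 0.149 cycles (SE, 95% interval -0.486 to 0.344, exact permutation p = 0.7). The 3 catalytic genes therefore could not be told apart in their change at this number of arrays.

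As a result of these shifts the order of the subunits differed between the genotypes. On 3 of 3 NOD1-deficient arrays pik3cb was highest, then pik3c2a, pik3r2 and pik3cg, so that pik3r2 moved from the first to the third place. As in WT, the small gaps are an order of assays more than of transcript numbers. The distance from the highest to the lowest of the 4 genes was 8.67-fold, against 15.7-fold in WT. The lead of pik3cb over pik3c2a in NOD1-deficient larvae was small, 0.21 ± 0.150 cycles (SD, n = 3), and on 1 array only 0.0420 cycles.

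**Figure D3:**
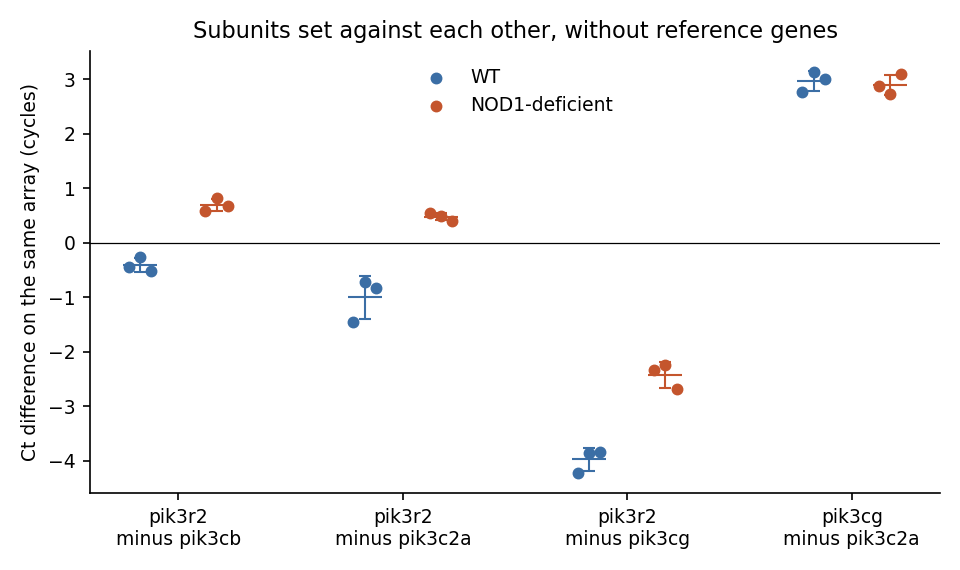
Ct difference between a pair of subunits on the same array (cycles, above 0 where the gene named first has the higher Ct), for WT and NOD1-deficient arrays, with means ± SD (n = 3). The differences of pik3r2 from pik3cb and from pik3c2a lie below 0 in WT and above 0 in NOD1-deficient larvae, while pik3cg minus pik3c2a overlaps.

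The size of a subunit's change also depended on the genes to which the arrays were scaled, and for the catalytic genes so did its direction. The level of pik3r2 was lower under 9 of 9 other scalings, passing the test in 8 and reaching 2-fold in 7. The exception was scaling to acta1b alone, where the log2 change was -0.55 and the adjusted p 0.0597 in limma. The gene acta1b encodes an actin of skeletal muscle, and its own Ct went from 16.7 ± 0.0974 in WT to 17.3 ± 0.338 in the mutants (SD, n = 3 each), or -0.61 in log2 units (exact permutation p = 0.1). The other reference genes also moved in raw Ct, by 0.46 for nono (exact permutation p = 0.1), 0.27 for rpl13a, 0.16 for hprt1 and -0.20 for b2m. The mean of all 5 moved by 0.015 (exact permutation p = 0.9). Whether a difference in muscle RNA had a part in the values of pik3r2 was not tested.

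The catalytic genes were less stable. The gene pik3cb was called lower with nono alone (log2 change -0.53, adjusted p 0.0201 in limma), but it turned to 0.14 with b2m alone and to 0.55 with acta1b alone, without passing in either. The gene pik3cg was called higher with all 5 reference genes (0.37, adjusted p 0.0444), with b2m alone (0.59, adjusted p 0.00441) and with acta1b alone (1.0, adjusted p 0.00209). The gene pik3c2a was called higher with b2m alone (0.52, adjusted p 0.0124) and with acta1b alone (0.93, adjusted p 0.00371), all in limma. The differences between subunits given above are the same under each of these scalings by construction.

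**Figure D4:**
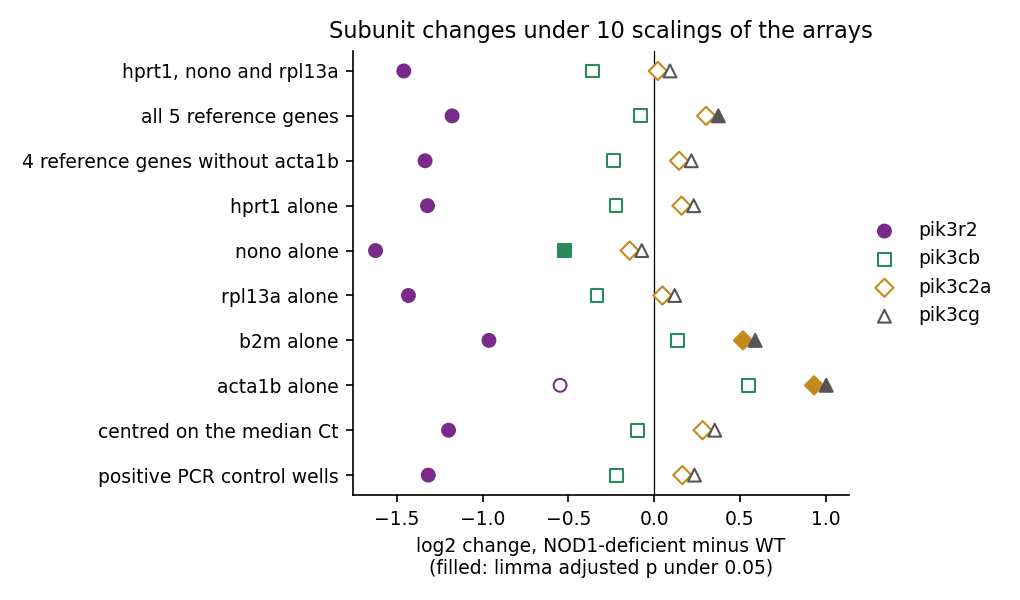
Log2 change (NOD1-deficient minus WT) of the 4 subunits under 10 scalings of the arrays, with filled symbols for an adjusted p under 0.05 in limma. All 4 genes move together from row to row, and pik3r2 stays below the catalytic genes and below 0 in each.

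The genes around PI3-kinase in the pathway were read from lists of upstream and downstream genes. The upstream list, of ligands, receptors, adaptors and Ras regulators that lead to PI3-kinase, had 9 genes on the array. Of these, 4 were called lower and 0 higher, against 15.5% lower over all genes, and the median log2 change was -0.18. The 4 genes were irs1 (log2 change -0.59, adjusted p 0.00147), which encodes an insulin receptor substrate that binds the regulatory subunits, and 3 genes of the branch from receptors to Ras. These were grb2b (-0.50, adjusted p 0.0112), an adaptor, shc1 (-0.42, adjusted p 0.0447), another adaptor, and sos1 (-0.61, adjusted p 0.00109), an exchange factor that activates Ras, all in limma. The WT and NOD1-deficient pools of irs1 overlapped. With a separate variance for each gene none of the 4 passed (adjusted p 0.109 to 0.301), and none passed when the arrays were scaled to the positive PCR control wells. The direction of the list's calls also turned, to 5 higher and 0 lower with acta1b alone and to 1 higher and 0 lower with all 5 reference genes, with b2m alone or with centring on the median Ct. Without WT replicate 3 there was 1 lower call, and without NOD1-deficient replicate 1 there were 2. The other 5 genes of the list did not pass, and the range of the list was -0.61 to 0.17.

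The downstream list, of kinases that bind the lipid products of PI3-kinase or act just below them, also had 9 genes on the array. Of these, 1 was called lower and 0 higher, where 15.5% of all genes were lower, and the median log2 change was -0.21. With acta1b alone 8 were called, all higher, and with b2m alone 1 was called, higher. The gene called was btk (-0.66, adjusted p 0.000369 in limma), which encodes a tyrosine kinase of B cells and myeloid cells that binds these lipids. It did not pass with its own variance (adjusted p 0.109). The genes akt1 and akt2, which encode the kinase Akt, had log2 changes of -0.21 and -0.23, and pdpk1b, whose product phosphorylates Akt, had -0.12. The gene sgk1, a relative of Akt, had 0.0086. All of these values were smaller in size than the -1.46 of pik3r2. The list of lipid phosphatases had 1 gene on the array, which did not pass.

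Last, the pathway genes whose level followed that of a subunit most closely over the 6 arrays were listed, as a description. For pik3r2 they were pdk1 (Pearson's r 0.99), itgb1b (r 0.99) and tlr4bb (r 0.99), with log2 changes of -2.0, -1.10 and -2.26. These are the other genes that were lower by at least 2-fold, and within the genotypes their r with pik3r2 was 0.34, 0.72 and 0.71. For pik3cb they were rhoab (r 0.96), tlr4bb (r 0.94) and pdk2 (r 0.93), with r within the genotypes of 0.95, 0.89 and 0.71. The product of tlr4bb came up late, WT pools averaging 31.6 cycles and NOD1-deficient pools 33.5. Both averages lie past the limit of 30 that was applied as an alternative, so the values of tlr4bb are less certain.

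Each of the 2 remaining catalytic genes had the other among its 3 nearest genes, though not as the nearest. Over the 6 arrays pik3c2a and pik3cg had an r of 0.75, and 0.76 within the genotypes. The other genes nearest to pik3c2a were ptk2ba (r 0.82) and mapk14a (r 0.72), and those nearest to pik3cg were pdgfra (r 0.77) and adar (r 0.76). For ptk2ba, WT pools averaged 34.0 cycles and NOD1-deficient pools 33.7, close to the ceiling of 35. Its replicates had a pooled SD of 0.764, the largest of the 84 genes, so the r of ptk2ba is uncertain. All values of an array share the same reference mean, so genes of an array can move together through it. The subunits pik3r2 and pik3cb had an r of 0.89 over the 6 arrays and of 0.63 within the genotypes, while the r of pik3r2 with pik3c2a was -0.043 (0.060 within the genotypes) and that with pik3cg -0.11 (0.57 within the genotypes).

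The 4 assays lie in 1 row of the plate. Over the 11 wells of that row other than that of pik3r2 the median log2 change was -0.28, against -0.11 over all 84 genes, and 3 of the 11 were called lower, beside 13 of the 84 (15.5%). The part of plate position in these values was not tested.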

How the data were processed

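Per the labels, total RNA was extracted with TRIzol and reverse transcribed with SuperScript III, and SYBR Green PCR was run on a commercial array. The authors deposited raw Ct values and, for each genotype, 1 normalized value, a linear ratio (2 to the power of minus delta Ct) from the manufacturer's software. Each column of Ct was taken as 1 biological replicate, since the labels list 1 sample per genotype and the design states 3 replicates. The reference genes of the ratio are not stated. The mean of hprt1, nono and rpl13a, together with a ceiling of 35 on Ct (reached by 1 value, not of a subunit), matched the deposited ratios within 1.91e-06 on the log2 scale, against 0.288 for the next best of all subsets of the 5 reference genes. These settings were used. A deposited table of the authors' fold changes (NOD1-deficient over WT per well) was not used.

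Minus delta Ct of the 84 pathway genes was fitted with limma 3.58.1 (lmFit, eBayes; R 4.3.3). Two-sided p-values were adjusted by Benjamini-Hochberg across all 84 genes, and 0.05 was the threshold. The fit estimated infinite prior degrees of freedom and hence 1 variance for all genes, and 20 of the 84 genes had a larger SE of their own. Ct differences between subunits were tested with two-sided exact permutation tests, and their intervals rest on 4 residual degrees of freedom. Intervals of log2 changes are limma's. The fit was tested on simulated data of independent genes with 1 common SD. Such data cannot show whether 1 variance suits the genes measured here. Ct was read as log2, assuming doubling per cycle. Precision is limited by the number of arrays.

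The members and gene lists were chosen with earlier results of these data known. Named genes were the subunits, list members that passed and up to 4 others, and the 3 genes nearest to each subunit by Pearson's r. Alternatives were other reference genes, the positive PCR control wells, median Ct centring, other variance models, no Ct ceiling, a mean Ct limit of 30, a replicate block and leaving out each replicate. Of the 4 array accessions, 1 matched the RefSeq gene table of GRCz12tu and 4 symbols did. One further gene met the naming rule and was fitted, but is not reported here.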

Additional observations from a re-analysis of the deposited data

How the results depend on the processing

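The fall of pik3r2 (-1.46) kept its direction in 20 of 20 alternatives and its call in 19. It was -0.55 with acta1b alone, and ran from -1.57 to -1.40 with 1 replicate left out. The count of called subunits (1) rose to 2 when all 5 reference genes were used, 2 with acta1b alone (pik3c2a and pik3cg), 3 with b2m alone and 2 with nono alone, and stayed 1 with each replicate left out. The value of pik3cb reversed to 0.55 with acta1b alone and 0.14 with b2m alone. That of pik3c2a reversed to -0.14 with nono alone and ran from -0.15 to 0.16 with 1 replicate left out (below 0 without WT replicate 1, -0.15, NOD1-deficient replicate 1, -0.016, or NOD1-deficient replicate 2, -0.023). That of pik3cg reversed to -0.072 with nono alone and ran from -0.037 (without NOD1-deficient replicate 2) to 0.27. The shift of pik3cg minus pik3c2a ran from -0.17 to 0.014 with 1 replicate left out, and the 3 shifts that involve pik3r2 stayed between 1.04 and 1.69. A change of reference genes moves each gene by the same constant by construction. The causes of the other differences were not tested.

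Of the 84 genes, 72 were called when acta1b was the only reference gene, 41 for b2m, 27 for nono, 25 with median Ct centring, 10 with the positive PCR control wells, 6 in the linear model without moderation, 5 on the linear scale without moderation (chosen after seeing the data), and 10 (without WT replicate 3) to 21 with 1 replicate left out. With all 5 reference genes 22 were called, 16 of them higher. The 4 upstream calls, all lower, became 5 with acta1b alone (5 higher), 1 with all 5 reference genes, b2m alone or median Ct centring (each higher), 2 with hprt1 alone or 4 reference genes without acta1b, 0 with the positive PCR control wells, in the linear model or on the linear scale without moderation, and 1 to 3 with 1 replicate left out. The 1 effector call, lower, became 8 with acta1b alone (8 higher), 1 with b2m alone (higher), 3 with nono alone, 2 with median Ct centring, and 0 with the positive PCR control wells, in the linear model or on the linear scale without moderation. Same-numbered arrays of the genotypes were not paired (correlations of deviations 0.12, 0.085 and -0.27), and with the replicate block pik3r2 was called at an adjusted p of 1.54e-13 and the log2 change was -1.46.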
